A study of Homo sapiens with 2 samples.

Results

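The BCL2 family and the TRAIL death receptors decide whether a stressed cell starts apoptosis, and 10 of their genes, chosen by symbol, were followed among the 25343 gene entries measured in Huh7 cells. These were the BH3-only genes BBC3, PMAIP1, BCL2L11 and BID, the pore-forming effectors BAX and BAK1, the TRAIL receptors TNFRSF10A and TNFRSF10B, and the pro-survival genes BCL2L1 and MCL1. Huh7 is an established line from a well differentiated human liver carcinoma. It was grown for 6 days either in low glucose medium (0.45 g/L) or in high glucose medium (4.5 g/L), both in DMEM with 10% serum and with no genetic change named in the labels. RNA of each medium was sequenced as 1 library. At every subculture only live cells were put back, so cells that had died were not carried on in either medium.

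In this family, pro-survival proteins such as BCL-XL and MCL1 hold the effectors BAX and BAK in check on the outer membrane of mitochondria. BH3-only proteins, made or activated under stress, bind the pro-survival proteins or the effectors, and once the effectors are free they open pores that release cytochrome c. TRAIL receptors start death from the cell surface through caspase-8, and in hepatocytes this signal is known to need BID, which caspase-8 cleaves, to reach the mitochondria. Of these genes, TNFRSF10B is a known target of the stress factor CHOP.

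Values are TPM, a length-corrected transcript abundance that adds up to 1000000 in each library. Differences are log2(TPM + 1), low minus high glucose, a scale on which differences between low values are shrunk, and a gene met the rule at 2-fold. Genes with a mean of at least 1 TPM over both libraries were compared, 13745 in all and 9 of the 10 members. With 1 library per medium there is no replicate check, no test and no p-value, so each difference describes these libraries. The hepatoma markers ALB, AFP, APOA1, TTR and HNF4A stood between 154 and 16441 TPM in low glucose and between 211 and 20859 TPM in high glucose, each lower in low glucose, except ALB once the median of genes of like level was subtracted. TTR differed most, at 682 TPM in low and 1351 TPM in high glucose (-0.99), just short of the 2-fold rule, and ALB least (-0.09). Among markers of blood, vessel and fibroblast cells, PTPRC, PECAM1, VWF, COL1A1 and ACTA2 summed to 6.20 TPM in low and 3.39 TPM in high glucose. Of these, the fibroblast collagen gene COL1A1 met the 2-fold rule at 4.03 TPM in low and 1.06 TPM in high glucose (1.29), while PTPRC stood at 0.50 TPM in low and 0.83 TPM in high glucose and PECAM1 at 1.25 TPM in low and 1.35 TPM in high glucose. CD68, a lysosomal protein of macrophages, stood at 39.3 TPM in low and 20.4 TPM in high glucose, and the part of these markers in any difference was not tested.

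Low glucose went with higher levels of 1 BH3-only gene and 1 death receptor, BBC3 and TNFRSF10B. In TPM as deposited, each stood at more than 3 times its level in high glucose. No other member compared met the 2-fold rule. The effectors and the pro-survival genes stayed close to their levels in high glucose. Thus 2 of the 9 members compared were at least 2-fold higher, against 3.65% of all genes compared (502 of 13745), and 0 were at least 2-fold lower, against 1.10% of all genes (151 of 13745). These members were listed with such results already known, so the count describes them and gives no support of its own. The median difference of the 9 members was 0.02, beside 0.05 over all genes compared. In RNA from whole cultures, a higher level per cell and a larger share of cells with the transcript cannot be told apart.

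**Figure D1:**
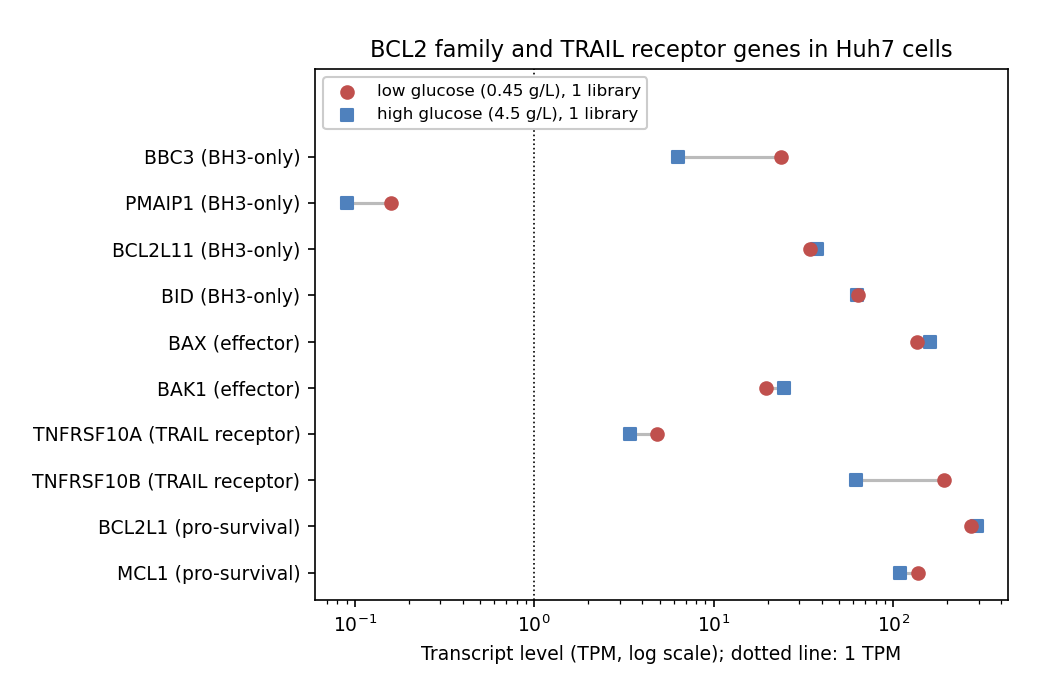
Transcript level of each member in TPM on a log axis, 1 point per library, with low glucose as circles and high glucose as squares. BBC3 and TNFRSF10B have the widest gaps among the members above 1 TPM, and PMAIP1 lies below 1 TPM in both libraries.

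Among the BH3-only genes, BBC3 stood out. BBC3 encodes PUMA, which can bind every pro-survival member of the family, and lies on chromosome 19 (47724079 to 47736023, hg19). Its level was 23.8 TPM in low glucose and 6.36 TPM in high glucose, a log2 difference of 1.75. That difference was above those of 99.3% of all genes compared. Of the 4662 genes whose mean level was within 2-fold of that of BBC3, 3.41% were at least 2-fold higher. In rank of level among the genes compared, BBC3 stood at the 52.7th percentile in low glucose and at the 24.5th in high glucose. The gene was thus of middling level in low glucose and of low level in high glucose.

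PMAIP1 encodes NOXA, which binds mainly MCL1. It was listed at 0.16 TPM in low glucose and 0.09 TPM in high glucose, below the level compared, and no fold is drawn from such values. PMAIP1 lies on chromosome 18 (57567192 to 57571538). BCL2L11 encodes BIM, a strong activator of the effectors, and stood at 34.3 TPM in low and 37.6 TPM in high glucose (log2 difference -0.13). BID, the link from death receptors to mitochondria, was level at 63.8 TPM in low and 63.1 TPM in high glucose (0.02). BBC3 therefore made up 19.5% of the summed BH3-only TPM in low glucose and 5.94% in high glucose. BID remained the most abundant of these genes in both media, with 52.3% of the sum in low and 58.9% in high glucose.

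A promoter window of BBC3 is shown because this is the member whose level differed most. Beside it are windows of BAX, the abundant effector that was within 2-fold, and PMAIP1, which was near 0. Whether these gene starts are the ones used in these cells was not tested. The windows run from 250 bases before to 50 bases after a RefSeq gene start (GRCh38.p14), read 5′ to 3′ on the strand of the gene. They are chr19:47232618-47232917 for BBC3 (minus strand), chr19:48954625-48954924 for BAX (plus strand) and chr18:59899746-59900045 for PMAIP1 (plus strand). Capitals mark matches, on either strand, to any of 4 motifs chosen with the differences known: TGACTCA (AP-1, bound by JUN and FOS), CACGTG (E-box, bound by MYC and others), TGACGTCA (bound by ATF and CREB factors) and TGATGCAAT (bound by ATF4 with C/EBP factors).
BBC3: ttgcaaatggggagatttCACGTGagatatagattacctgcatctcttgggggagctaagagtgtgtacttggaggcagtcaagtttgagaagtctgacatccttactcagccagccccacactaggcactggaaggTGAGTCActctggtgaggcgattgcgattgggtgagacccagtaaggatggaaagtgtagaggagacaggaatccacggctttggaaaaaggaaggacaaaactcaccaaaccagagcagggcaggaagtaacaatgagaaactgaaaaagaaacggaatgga
BAX: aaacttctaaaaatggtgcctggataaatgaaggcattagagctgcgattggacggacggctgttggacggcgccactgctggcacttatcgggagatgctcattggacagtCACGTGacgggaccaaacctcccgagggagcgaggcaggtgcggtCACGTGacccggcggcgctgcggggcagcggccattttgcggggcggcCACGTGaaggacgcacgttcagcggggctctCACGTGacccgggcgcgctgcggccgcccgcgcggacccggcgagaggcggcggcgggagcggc
PMAIP1: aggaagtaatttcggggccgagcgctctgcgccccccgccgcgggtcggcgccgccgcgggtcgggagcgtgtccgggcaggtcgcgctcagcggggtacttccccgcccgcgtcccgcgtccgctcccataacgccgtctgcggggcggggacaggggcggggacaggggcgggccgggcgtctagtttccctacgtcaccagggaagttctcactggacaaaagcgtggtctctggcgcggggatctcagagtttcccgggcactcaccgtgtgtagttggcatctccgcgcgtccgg
The BBC3 window held 1 AP-1 match, written there as its reverse complement and starting 113 bases before the gene start, and 1 E-box starting 232 bases before it. AP-1 matches were in 4.95% and E-boxes in 7.26% of all 35116 windows of that length. The BAX window held 4 E-boxes, starting 138, 93, 45 and 14 bases before the start, and the PMAIP1 window held none of the 4 motifs. None of the marked matches overlap. Among the windows not printed, overlapping windows of BID, which was level, also held an E-box, starting 106 and 47 bases before their gene starts. The TGACGTCA motif was in 1.85% and TGATGCAAT in 0.236% of all windows, and neither was in any of the 12 windows found for 7 of the members. No window was found for MCL1, TNFRSF10A or TNFRSF10B, so their promoters were not searched for any of the motifs. GC content was 48.0% in the BBC3 window, 67.3% in the BAX window and 71.3% in the PMAIP1 window, against a median of 58.7% over all windows. A match is a run of letters and says nothing of binding in these cells.

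Both effectors were slightly lower in low glucose. BAX, which moves from the cytosol to mitochondria when activated, stood at 135 TPM in low and 159.7 TPM in high glucose (-0.24). BAK1, whose protein sits on mitochondria already, stood at 19.6 TPM in low and 24.7 TPM in high glucose (-0.32). These differences were above those of 24.3% and 18.7% of all genes compared, well inside the bulk of the distribution. BAX thus had 6.89 times the TPM of BAK1 in low glucose and 6.47 times in high glucose. The order of the effectors was the same in both media.

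Both pro-survival genes stayed within 2-fold. The differences of BCL2L1 and MCL1 were above those of 36.5% and 73.3% of all genes compared. With the median of genes of like level subtracted, both lay above 0 (0.04 for BCL2L1 and 0.45 for MCL1). BCL2L1, which encodes BCL-XL, was the most abundant member in both libraries, at 272 TPM in low and 291 TPM in high glucose (-0.10). MCL1, a short-lived protein that cells must keep making, stood at 138 TPM in low and 109.6 TPM in high glucose (0.33). MCL1 thus had 0.506 times the TPM of BCL2L1 in low glucose and 0.376 times in high glucose. Both genes are known to make a shorter, pro-death splice form as well, and the gene-level values cover all forms. Of the other pro-survival genes, BCL2L2 stood at 18.1 TPM in low and 11.8 TPM in high glucose (0.58). BCL2A1 was listed at 0.47 TPM in low and 0.10 TPM in high glucose, below the level compared. BCL2 and BCL2L10 were named after their values were seen. BCL2, the founding member of the family, was listed at 0.09 TPM in low glucose and 0 in high glucose, and BCL2L10 at 0.12 TPM and 0, so pro-survival transcripts in these libraries were nearly all BCL2L1, MCL1 and BCL2L2.

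**Figure D2:**
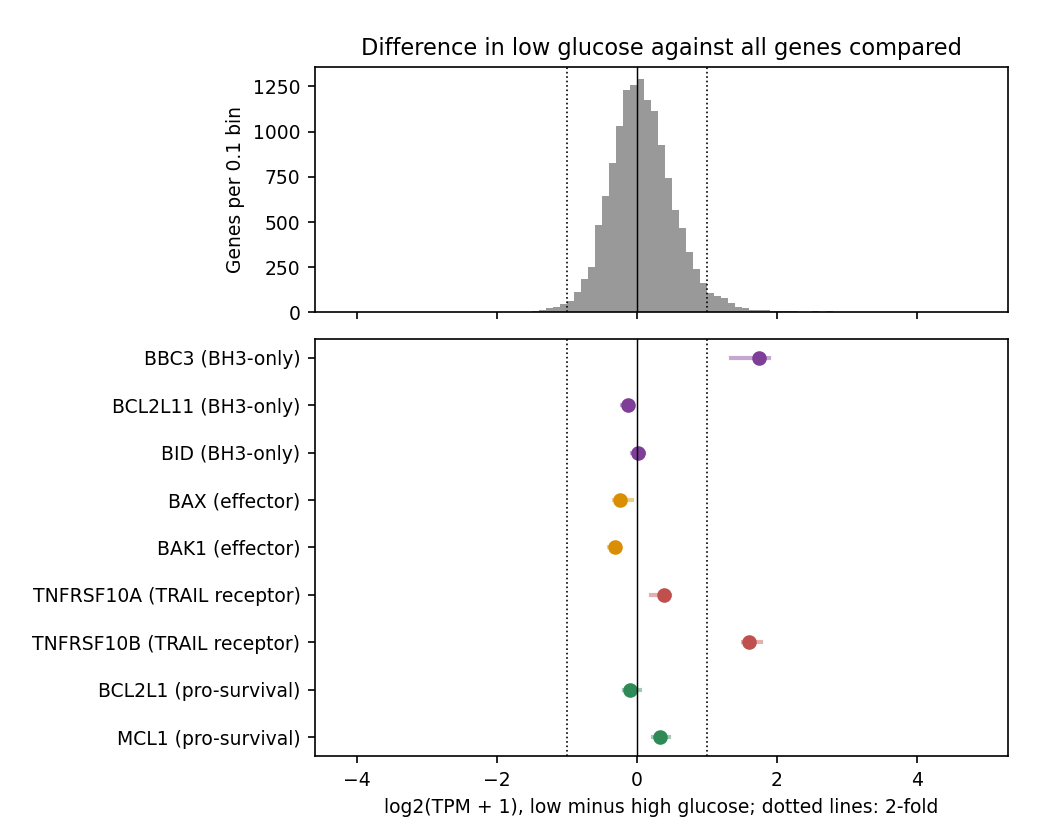
Upper panel: number of genes per 0.1 step of the log2(TPM + 1) difference, low minus high glucose, for the 13745 genes compared. Lower panel: the same difference for the 9 members compared (points), with bars from the lowest to the highest value under the alternative settings; BBC3 (1.75) and TNFRSF10B (1.61) lie beyond the 2-fold line.

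The TRAIL receptors differed in size. TNFRSF10B, which encodes DR5 (chromosome 8, 22877648 to 22926700, hg19), stood at 191 TPM in low and 62.0 TPM in high glucose, a log2 difference of 1.61. That was above the differences of 99.2% of all genes compared. Of the 2318 genes of like mean level (within 2-fold), 3.54% were at least 2-fold higher. TNFRSF10A, the gene of the sister receptor DR4, stood at 4.81 TPM in low and 3.43 TPM in high glucose (0.39). TNFRSF10B therefore held 97.5% of the summed TPM of these receptors in low and 94.8% in high glucose, and nearly all the receptor transcript in either medium was that of DR5. It was the second most abundant member in low glucose and the fifth in high glucose.

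The decoy receptors and the ligand of the same system, named after their values were seen, were also measured. TNFRSF10D, a decoy that binds TRAIL without passing on a full death signal, stood at 29.0 TPM in low and 20.1 TPM in high glucose (0.51). The soluble decoy TNFRSF11B (osteoprotegerin) stood at 48.4 TPM in low and 36.2 TPM in high glucose (0.41). TNFRSF10C, a decoy anchored to the membrane by lipid, stood at 2.02 TPM in low and 0.53 TPM in high glucose (0.98), just short of the 2-fold rule from a low level. Taken as sums, the signalling receptors TNFRSF10A and TNFRSF10B had 2.46 times the TPM of these decoys in low glucose and 1.15 times in high glucose. The ligand gene itself, TNFSF10 (TRAIL), went the other way, at 7.55 TPM in low and 14.9 TPM in high glucose (-0.89), and it passed 2-fold once the median of genes of like level was subtracted. Ligand and DR5 transcripts thus differed in opposite directions, with 25.3 times as much TNFRSF10B as TNFSF10 in low glucose and 4.17 times as much in high glucose.

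Set against each other by role, pro-death and pro-survival members gave a balance that rested on the receptor. The BH3-only genes summed to 122 TPM in low and 107 TPM in high glucose, and the effectors to 155 TPM in low and 184 TPM in high glucose. The TRAIL receptors summed to 196 TPM in low and 65.5 TPM in high glucose, and the pro-survival genes to 410.05 TPM in low and 401 TPM in high glucose. Pro-death over pro-survival TPM was thus 1.15 in low glucose and 0.890 in high glucose. Without TNFRSF10B the order turned, to 0.687 in low and 0.736 in high glucose. Within the BCL2 family alone, BH3-only genes and effectors had 0.675 times the pro-survival TPM in low glucose and 0.727 times in high glucose. BBC3 alone had 0.0579 times the pro-survival TPM in low and 0.0159 times in high glucose, so even where it was higher it was a small part of the family's transcripts.

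**Figure D3:**
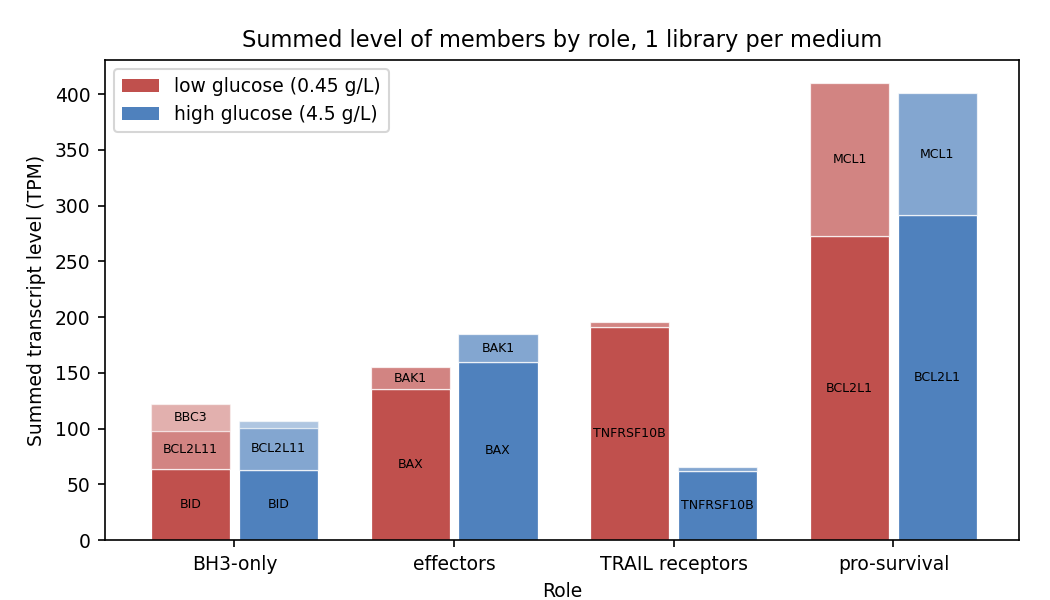
Summed TPM of the members of each role, stacked by gene, with low glucose on the left of each pair and high glucose on the right (1 library each). The receptor bars differ most (196 TPM in low and 65.5 TPM in high glucose), and the pro-survival bars are nearly level.

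By the medians, the pro-death members did not exceed the pro-survival members. The median difference was 0.02 over the 7 pro-death members compared and 0.12 over the 2 pro-survival members. Of the pro-death members, 4 lay above 0 and 3 below, beside 7498 above and 6227 below among all genes compared. The medians and the summed balance thus differ in direction. Leaving BBC3 out of the sum kept the log2 of the low over the high glucose ratio at 0.32, beside 0.37 with all members and -0.10 without TNFRSF10B. In level, the members ran from BCL2L1 through TNFRSF10B, MCL1, BAX, BID, BCL2L11, BBC3, BAK1 and TNFRSF10A to PMAIP1 in low glucose. The order in high glucose was BCL2L1, BAX, MCL1, BID, TNFRSF10B, BCL2L11, BAK1, BBC3, TNFRSF10A and PMAIP1. No spread is known for these levels, so close neighbours such as MCL1 and BAX in low glucose or BID and TNFRSF10B in high glucose cannot be ordered with confidence.

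The other genes of the pathway were described from lists of 56 genes, written by role with earlier results of these data known. Of the 56, 48 were at the level compared. None of the 48 met the 2-fold rule in either direction, beside 3.65% higher and 1.10% lower over all genes. Their median difference was -0.02, with 24 above 0 and 24 below. Among other BH3-only genes and BOK (6 of 7 compared, median 0.10), the most abundant were BNIP3, a mitophagy receptor of the same family, at 197 TPM in low and 188 TPM in high glucose, and its relative BNIP3L at 58.3 TPM in low and 60.3 TPM in high glucose. BMF, which is tied to the cytoskeleton until stress frees it, stood at 32.5 TPM in low and 20.4 TPM in high glucose (0.65), named after its values were seen. Other genes named after BCL2 (4 of 5 compared) were nearly level, with a median of -0.06. BCLAF1, a BCL2-associated transcription factor rather than a BCL2-like protein, stood at 70.7 TPM in low and 82.9 TPM in high glucose (-0.23). BCL2L12 stood at 54.6 TPM in low and 59.5 TPM in high glucose.

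Beyond the TRAIL system, the most abundant of the ligands and other receptors were TNFRSF1A, the main receptor for TNF, at 104 TPM in low and 128 TPM in high glucose, and TNFRSF21 (DR6) at 109.6 TPM in low and 67.6 TPM in high glucose (0.69). FAS, the receptor for FAS ligand, was listed at 0.27 TPM in low and 0.25 TPM in high glucose, and FASLG at 0 in both; these genes were named after their values were seen. Death receptor transcripts here were mostly those of TNFRSF10B, TNFRSF1A and TNFRSF21, with FAS below the level compared. TNFRSF10A (4.81 TPM in low and 3.43 TPM in high glucose) and TNFRSF25 (3.27 TPM in low and 2.60 TPM in high glucose) were at low levels. TNFRSF25 was named after its values were seen. Inside the receptor complex (6 genes, median 0.07), CFLAR, which encodes the caspase-8 inhibitor c-FLIP, stood at 39.9 TPM in low and 30.4 TPM in high glucose. FADD, the adaptor that recruits caspase-8, stood at 33.0 TPM in low and 49.7 TPM in high glucose (-0.58). CASP8 itself, named after its values were seen, stood at 28.5 TPM in low and 24.9 TPM in high glucose, so CFLAR had 1.40 times its TPM in low and 1.22 times in high glucose.

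Downstream of the mitochondria, all 10 genes of the apoptosome and executioner list lay below 0, with a median of -0.36 and none at 2-fold. Among all genes compared, 6227 of 13745 lay below 0. This list too was written with earlier results of these data known, so the count describes these genes only. CYCS, the gene of cytochrome c, stood at 72.6 TPM in low and 94.6 TPM in high glucose (-0.38). AIFM1, a mitochondrial flavoprotein that can be released in cell death, stood at 55.05 TPM in low and 70.5 TPM in high glucose (-0.35). The smallest difference on that list was -0.06 and the largest -0.73, and the median stayed between -0.45 and -0.27 under the scaling, pseudocount, filter and level alternatives. Abundant genes of all kinds tended to lie lower in low glucose, and with the median of genes of like level subtracted all 10 still lay below 0 (median -0.27). Among the inhibitors of apoptosis (5 genes, median 0.18), BIRC2 stood at 52.3 TPM in low and 46.0 TPM in high glucose and BIRC5 (survivin, also a mitotic protein) at 36.8 TPM in low and 69.2 TPM in high glucose (-0.89).

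**Figure D4:**
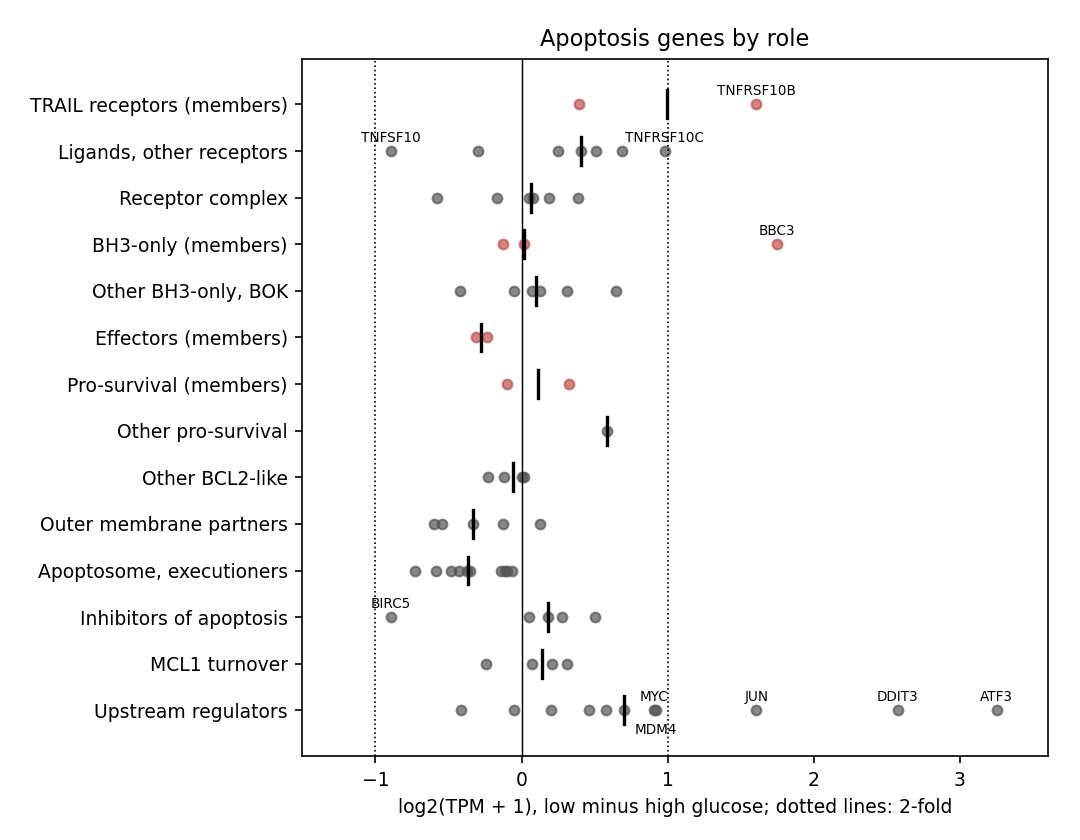
Each point is the log2(TPM + 1) difference, low minus high glucose, of 1 gene at the level compared; short bars are medians, members are red and other genes of the pathway grey. Only BBC3, TNFRSF10B and 3 upstream regulators lie past the 2-fold lines (dotted), and all 10 apoptosome and executioner genes lie left of 0.

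Membrane proteins listed as partners of the family had a median of -0.33, with 4 of 5 below 0, beside 6227 of 13745 over all genes compared. Their list includes BCAP31, a protein of the endoplasmic reticulum, at 193 TPM in low and 177 TPM in high glucose (0.13), named after its values were seen. With the median of genes of like level subtracted, 3 of the 5 lay below 0 and the median was -0.21. VDAC1, the main channel of the outer membrane of mitochondria, stood at 247 TPM in low and 361 TPM in high glucose (-0.55). VDAC3 stood at 163 TPM in low and 249 TPM in high glucose (-0.60). Genes that set the life of the MCL1 protein were close to level (4 genes, median 0.14). HUWE1, a ubiquitin ligase for MCL1, stood at 85.0 TPM in low and 73.4 TPM in high glucose, and USP9X, which removes ubiquitin from it, at 29.4 TPM in low and 27.9 TPM in high glucose. Neither side of MCL1 turnover met the rule, and MCL1 protein was not measured.

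Of 12 regulators known to act upstream of these genes, 11 were compared and 3 were at least 2-fold higher, with 0 lower and a median of 0.70. Over all genes compared, 3.65% were at least 2-fold higher and 1.10% lower, with a median of 0.05. The regulators were listed with earlier results of these data known, so their count and median describe them and give no support of their own. DDIT3, the gene of CHOP, stood at 208 TPM in low and 34.1 TPM in high glucose (2.58). ATF3, another stress factor, stood at 82.7 TPM in low and 7.79 TPM in high glucose (3.25). JUN, part of AP-1, stood at 158 TPM in low and 51.2 TPM in high glucose (1.61). These are the regulators linked with TNFRSF10B and BBC3 in other settings, and their part in these differences was not tested. ATF4, the most abundant regulator on the list, stood at 904 TPM in low and 658 TPM in high glucose (0.46), and MYC at 198 TPM in low and 105 TPM in high glucose (0.91). E2F1, which can drive several BH3-only genes and was named after its values were seen, stood at 64.9 TPM in low and 86.8 TPM in high glucose (-0.42).

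The deposited intervals were checked for entries that could share reads with the members, leaving aside entries whose interval spans more than 1 megabase. BBC3 overlapped MIR3190 and MIR3191, both listed at 0 in either library. TNFRSF10B overlapped RHOBTB2 by 63 bases, at 7.54 TPM in low and 8.41 TPM in high glucose, and LOC286059 by 959 bases, at 0.04 TPM in low and 0.26 TPM in high glucose. Reads shared with these neighbours were not tested. BID overlapped MIR3198-1, listed at 0 in both libraries, and MCL1 overlapped ADAMTSL4-AS1 by 2 bases, at 0.72 TPM in low and 0.81 TPM in high glucose. The intervals of the other 6 members were shared with no such entry.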

How the data were processed

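RNA of Huh7 cells was sequenced as 1 library per medium after 6 days of treatment that followed seeding of 500000 cells per well, per the labels' protocols. The deposited values are TPM per gene, per the file headers. The submitters' processing notes name cutadapt, RSEM 1.2.21 (which divides reads that map to several genes between them) and hg19. Which aligner, annotation and strand setting were used is not given in the sources used here. Since TPM keeps no read number, the depth is unknown and no counting interval is given. Entries were matched by symbol, and groups came from the treatment label.

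The difference was log2(TPM + 1), low minus high glucose, for genes with a mean of at least 1 TPM, with a 2-fold rule and no test. The procedure was tested on simulated data with planted 3-fold changes and little added noise. That checks the code and gives no error rate for these libraries. Members and lists were chosen with earlier results of these data known. Named genes were all members and, from each other list, the 2 most abundant genes and every gene past the rule; 1 listed gene is not reported here. Alternatives were 4 scalings, 2 pseudocounts, 2 filters, 2 thresholds, subtraction of the median of each of 20 level groups, and sums leaving out each member. Trimmed-mean scaling and the level groups were chosen after seeing the data. Promoter windows came from RefSeq (GRCh38.p14), matched by symbol for 7 members. A planned search of protein sequences was not run. Python 3.11.15, pandas 2.3.3 and numpy 2.4.6 were used.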

Additional observations from a re-analysis of the deposited data

How the results depend on the processing

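BBC3 (1.34 to 1.88) and TNFRSF10B (1.51 to 1.77) met the rule under all 11 alternatives, and the other members compared never did. The 3-fold rule was applied to TPM as deposited only. TNFRSF10B fell short of 3-fold under median-of-ratios (1.52), upper-quartile (1.56) and trimmed-mean scaling (1.51). With a pseudocount of 5, both TNFRSF10B (1.55) and BBC3 (1.34) fell short of it. BID (-0.07 to 0.10) and BCL2L1 (-0.19 to 0.04) changed sign. The summed balance rested on few genes. Without TNFRSF10B the log2 of the low over the high glucose ratio was -0.10 in place of 0.37 and the low glucose ratio was 0.687. Without BAX it was 0.74 (high glucose ratio 0.492). Without BCL2L1 it was 0.075, with ratios of 3.43 in low and 3.26 in high glucose. Without MCL1 the low glucose ratio was 1.74. The median of pro-death minus pro-survival differences was -0.10, and -0.062 with no filter, -0.17 at a mean of at least 10 TPM, -0.15 with level medians subtracted and -0.24 without the receptors. Among the 48 other pathway genes, 1 was higher with a pseudocount of 0.1 (TNFRSF10C) and 1 lower with level medians subtracted (TNFSF10). At 1.5-fold, 3 were higher (BMF, TNFRSF10C, TNFRSF21) and 5 lower (TNFSF10, CASP6, ENDOG, BIRC5, VDAC3), as were 6 upstream regulators higher. All genes counted 234 higher and 79 lower with a pseudocount of 5, 293 higher at a mean of at least 10 TPM, 1786 and 835 at 1.5-fold, and 119 and 22 at 3-fold. The causes were not tested, beyond fewer genes entering under a filter. Scalings moved the median of all genes from 0.05 to between -0.03 and 0.08. No paired analysis was possible because each medium has 1 library. Leaving out a library leaves no comparison. The depth is unknown, which limits PMAIP1 and other genes near 0.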

Other observations

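Genes of other forms of programmed death, a list of 16 chosen after the data were seen, were mostly low or level. Of these, 7 were at the level compared, none met the 2-fold rule and the median difference was 0.09, beside 0.05 over all genes. The necroptosis kinase gene RIPK3 was listed at 0 in both libraries, and its substrate gene MLKL stood at 0.74 TPM in low and 1.29 TPM in high glucose. The inflammasome genes NLRP3 (listed at 0 in both) and PYCARD (0 in low and 0.12 TPM in high glucose) were also at or near 0. Pore-forming gasdermins were present, with GSDMD at 51.8 TPM in low and 51.4 TPM in high glucose and GSDMB at 43.4 TPM in low and 30.7 TPM in high glucose (0.49). DFNA5, which encodes gasdermin E, stood at 30.5 TPM in low and 28.6 TPM in high glucose. CASP4, an inflammatory caspase, stood at 87.0 TPM in low and 58.9 TPM in high glucose (0.55), and the cytokine gene IL18 at 89.9 TPM in low and 52.7 TPM in high glucose (0.76). NINJ1, which ruptures the plasma membrane late in cell death and was the most abundant gene of the list, stood at 111 TPM in low and 145 TPM in high glucose (-0.38).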
